A study of Mus musculus with 11 samples.

Results

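The kinase that switches on NF-kB, the NF-kB subunits and the inhibitors that shut the pathway off were followed across 4 genotypes of mouse hepatocytes. The family comprised 10 listed genes: the IKK subunits Ikbkg (Nemo), Ikbkb and Chuk, the transcription factor subunits Rela, Relb, Nfkb1 and Nfkb2, and the feedback genes Nfkbia, Nfkbiz and Tnfaip3. A gene was included through the array row annotated to it alone, and where a gene has several such rows, through the brightest on average. This gave 8 genes out of 30142 with such a row. Chuk and Nfkb1 were not analysed here. The 8 genes had 1 row each, and all 8 passed the filter on dim rows, a highest group mean of at least 5.27 on the log2 scale.

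Hepatocytes came from 12-week-old male mice with no treatment. Wildtype (n = 2) and Nemo KO (n = 3, Nemo removed in liver parenchymal cells) carried the source names of a Nemo line without and with Cre. Cxcr6 KO (n = 3) and double KO (n = 3, both deletions) carried those of a Nemo and CXCR6 line without and with Cre. Each comparison of Nemo deletion therefore stayed within a line, whereas the effect of Cxcr6 loss and that of the mouse line cannot be told apart. The labels do not name the promoter driving Cre, and they call the arrays biological replicates without saying that each is a separate mouse, so p-values measure the spread between these samples, which may be technical.

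In resting cells IkB proteins hold NF-kB dimers in the cytoplasm. Cytokine and pattern recognition receptors activate the IKK complex, made of the kinases Ikbkb and Chuk and the scaffold Ikbkg, which marks IkB for destruction and frees the dimers. NF-kB then induces its own inhibitors, among them Nfkbia and the ubiquitin-editing enzyme Tnfaip3, which is why their RNA is often read as a sign of pathway activity. In hepatocytes the pathway limits death caused by tumour necrosis factor and drives part of the acute-phase response.

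RefSeq promoter windows (assembly GRCm38.p6, from 250 bases before to 50 after a start) were matched for 6 of the 10 genes, giving 12 windows. The kB consensus, the 10-base sequence NF-kB dimers bind, was searched on both strands and was present in 5 of these windows, which belonged to 3 genes, Nfkb2, Nfkbia and Tnfaip3. It was present in 4.51% of all 32851 windows. No window of Ikbkg, Chuk or Rela held it. Every Nfkb2 window held a match. Those at chr19:46305445-46305744 and chr19:46305680-46305979 overlap, and a match in their common part was counted in both. The windows are thus not separate units, and their count was not tested against the percentage of all windows. The 250 bases before the start are shown for a window of each of the 3 genes, 5′ to 3′ on the gene's strand, with consensus matches in capitals. They are chr12:55492648-55492897 (minus strand) for Nfkbia, chr10:19015411-19015660 (minus strand) for Tnfaip3 and chr19:46304487-46304736 (plus strand) for Nfkb2.
Nfkbia: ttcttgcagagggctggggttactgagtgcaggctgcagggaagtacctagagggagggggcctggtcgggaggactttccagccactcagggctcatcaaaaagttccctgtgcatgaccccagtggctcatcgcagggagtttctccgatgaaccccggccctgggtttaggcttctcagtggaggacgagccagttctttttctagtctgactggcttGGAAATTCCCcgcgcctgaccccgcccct
Tnfaip3: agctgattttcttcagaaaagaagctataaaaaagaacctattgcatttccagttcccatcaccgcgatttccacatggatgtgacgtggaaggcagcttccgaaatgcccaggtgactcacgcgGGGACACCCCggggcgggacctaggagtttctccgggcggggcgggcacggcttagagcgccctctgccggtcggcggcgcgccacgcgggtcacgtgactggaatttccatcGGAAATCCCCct
Nfkb2: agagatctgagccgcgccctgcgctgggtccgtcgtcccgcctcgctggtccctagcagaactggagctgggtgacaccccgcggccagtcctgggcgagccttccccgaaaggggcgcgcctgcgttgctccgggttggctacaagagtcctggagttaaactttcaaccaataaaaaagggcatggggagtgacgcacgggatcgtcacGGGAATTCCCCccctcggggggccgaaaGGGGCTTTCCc
In Nfkbia the match GGAAATTCCC began 29 bases before the start. Tnfaip3 held GGAAATCCCC at 12 bases and GGGACACCCC at 125 bases before the start. Nfkb2 held GGGGCTTTCC at 11 bases before the start, and GGGAATTCCC at 39 bases, which overlaps a further match, GGAATTCCCC, shifted by 1 base. A match describes the letters in the window and is no measurement of binding.

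Values are log2 signals after RMA, so a difference of 1 is a doubling of signal. The column medians lay between 5.19 and 5.38. Albumin (Alb), the main product of hepatocytes, lay between 19.82 and 19.93 on all arrays and reached the highest value in the table. Whether signal this high is saturated was not tested, so this row does not compare the share of hepatocytes between groups. The T cell gene Cd3e, the NK cell gene Ncr1 and the neutrophil gene S100a8 stayed below the filter, but 3 of 8 T cell markers with a row, 3 of 9 NK and NKT cell markers and 2 of 7 neutrophil markers passed it. The wildtype arrays stood apart from each other: they correlated at 0.984 over the table's rows, and the other pairs of one genotype at 0.990 to 0.995, and the proliferation gene Mki67 read 5.35 in replicate 1 and 11.18 in replicate 2. The Cxcr6 row lay between 4.94 and 5.56 on all arrays, wildtype included, near the array medians, and so does not check that genotype.

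None of the 8 genes changed between genotypes by limma at an adjusted p of 5% over 18337 genes. The count was 0 of 8 for Nemo KO against wildtype, where 0.158% of all genes were called, for double KO against Cxcr6 KO (7.41%), for double KO against Nemo KO (0.594%) and for Cxcr6 KO against wildtype (0.256%). It was also 0 of 8 for the average of both Nemo effects, which uses all 11 arrays and in which 20.3% of all genes were called, and for the F test of any difference among the 4 groups (12.7%). The interaction, the Nemo effect in the Cxcr6-deficient line minus that in the other line, called 0% of all genes, while 11.8% had an unadjusted p under 0.05. Before adjustment, 1 of 8 had a p under 0.05 for double KO against Cxcr6 KO and for the average Nemo effect, Nfkbia in both, where 29.1% and 34.7% of all genes did. Tnfaip3 was the 1 of 8 for Cxcr6 KO against wildtype, where 11.1% did. The unadjusted count was 0 of 8 for Nemo KO against wildtype (24.6% of all genes), double KO against Nemo KO (16.8%), the interaction and the F test (33.8%). Values of the groups compared did not overlap for 1 of 8 genes, Nfkbia, in double KO against Cxcr6 KO, where this held for 37.7% of all genes. It held for 0 of 8 in Nemo KO against wildtype (36% of all genes), double KO against Nemo KO (22.8%) and Cxcr6 KO against wildtype (23.9%).

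**Figure D1:**
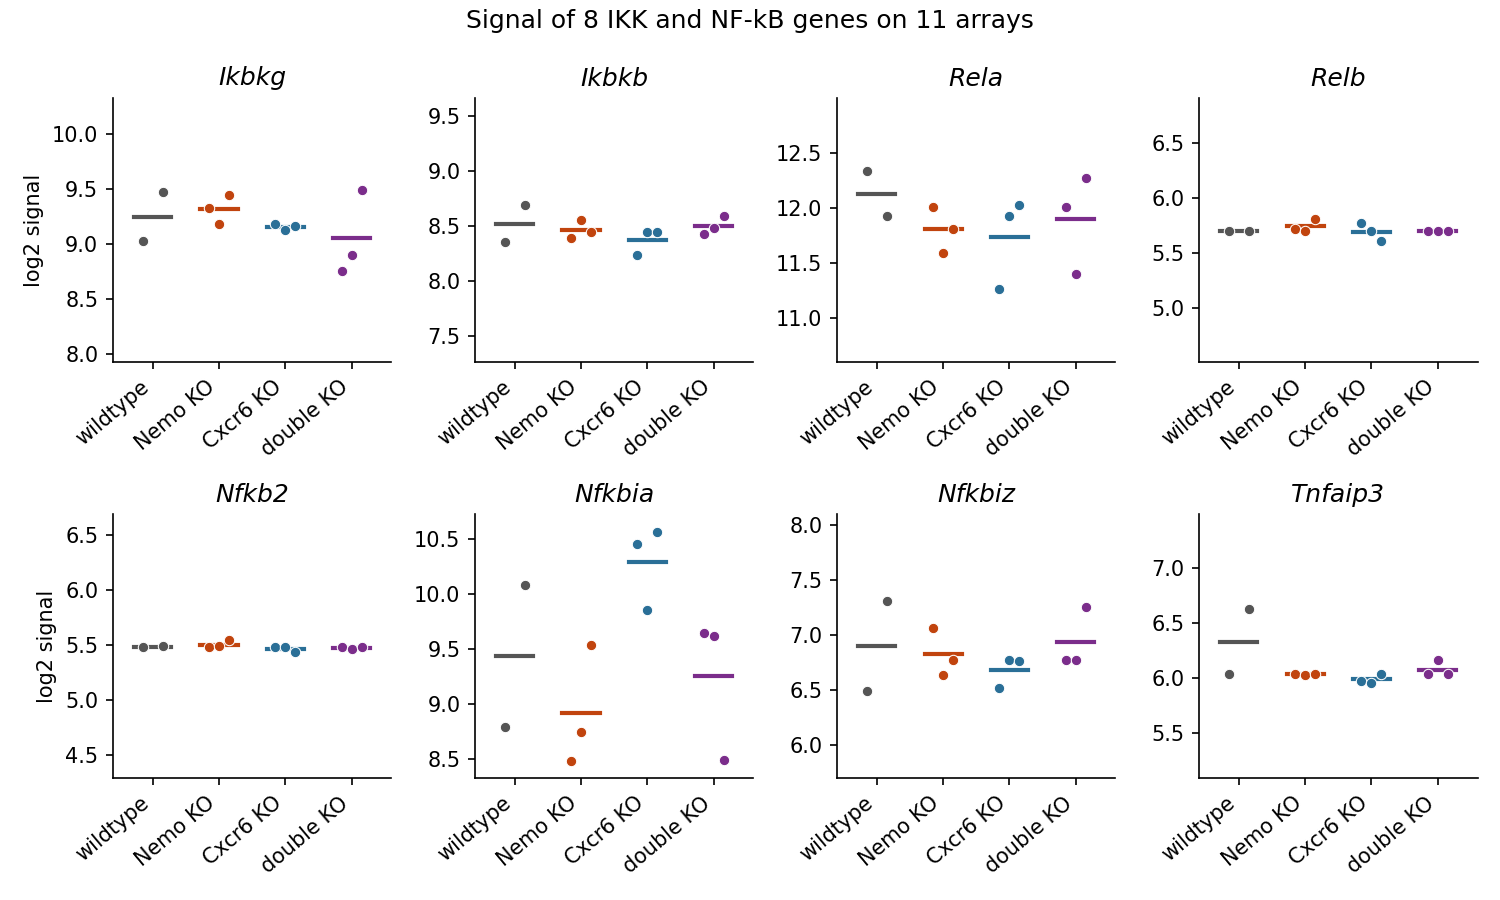
Log2 signal (vertical axis, all panels spanning the same number of log2 units) of the 8 genes by genotype, with a point per array and a bar at the group mean. Nfkbia has the widest spread, from 8.49 to 10.57, and Cxcr6 KO is its highest group; Relb and Nfkb2 are nearly flat.

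Ikbkg, the gene deleted in Nemo KO and double KO, encodes the scaffold that holds the kinases together. Its log2 signal was 9.02 and 9.47 in wildtype, 9.33, 9.18 and 9.45 in Nemo KO, 9.18, 9.12 and 9.16 in Cxcr6 KO, and 8.76, 8.90 and 9.49 in double KO. The groups overlapped in all 4 pairwise comparisons, and double KO replicate 3 had the highest value of all arrays. The average Nemo effect was -0.02 ± 0.14 (SE) on the log2 scale, with a 95% confidence interval of -0.34 to 0.30. The position of the probes relative to the deleted exons is not known here, which leaves the genotype unchecked by this row.

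Ikbkb, the kinase that phosphorylates IkB in the canonical pathway, varied little. It read 8.35 and 8.68 in wildtype, 8.39, 8.56 and 8.44 in Nemo KO, 8.24, 8.44 and 8.44 in Cxcr6 KO, and 8.43, 8.48 and 8.59 in double KO. The 4 groups overlapped throughout. Its group means spanned 0.14, and 12.4% of tested genes had means that spanned less. The confidence interval of the average Nemo effect (0.03 ± 0.08, adjusted p = 0.809 by limma) ran from -0.15 to 0.22.

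Rela encodes the transactivating subunit of the canonical dimer. Its log2 signal was 12.34 and 11.92 in wildtype, 12.01, 11.60 and 11.81 in Nemo KO, 11.26, 11.92 and 12.03 in Cxcr6 KO, and 12.01, 11.40 and 12.28 in double KO. The spread lay within the groups: its pooled SD of 0.36 exceeded that of 86.8% of tested genes, while its group means spanned 0.39, close to the median span of 0.40. The effect of Nemo deletion was -0.32 ± 0.30 in the line with Cxcr6 and 0.16 ± 0.26 in the line without it. Leaving out 1 array gave -0.53 to -0.12 for the first and -0.08 (without Cxcr6 KO replicate 1) to 0.41 (without double KO replicate 2) for the second. The difference between these effects, 0.48 ± 0.40, did not pass (limma adjusted p = 0.632), and its interval of -0.41 to 1.38 includes a change of more than a doubling.

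Relb and Nfkb2 encode the dimer of the non-canonical pathway, whose activation does not need Ikbkg. Relb lay at 5.70 on both wildtype arrays, at 5.71, 5.70 and 5.81 in Nemo KO, at 5.77, 5.70 and 5.60 in Cxcr6 KO and at 5.70 on all 3 double KO arrays. Nfkb2 lay between 5.43 and 5.54 on all 11 arrays. Both lay just above the filter on dim rows. Their pooled SDs, 0.06 and 0.02, were smaller than those of all but 4.79% and 0.605% of tested genes. The average Nemo effects were 0.03 ± 0.05 and 0.01 ± 0.05.

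Several of the genes had exactly the same value on more than 1 array, which the median polish step of RMA can return. Relb, Nfkb2 and Tnfaip3 each had an identical value on 6 of the 11 arrays, Nfkbiz on 4 and Ikbkb on 3. Of all tested genes, 5.33% had an identical value on at least 6 arrays and 17.8% on at least 4. Nfkbia had no value repeated.

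Nfkbia, the IkB protein that NF-kB induces most directly as its own brake, varied most. It read 8.79 and 10.08 in wildtype, 8.49, 8.75 and 9.54 in Nemo KO, 10.46, 9.86 and 10.57 in Cxcr6 KO, and 9.65, 9.62 and 8.49 in double KO. Every Cxcr6 KO array exceeded every Nemo KO and double KO array, and wildtype spanned the gap. Its range over the arrays was wider than that of 94.0% of tested genes, and its pooled SD within groups, 0.61, was larger than that of 97.4%. From highest to lowest the means were 10.30 ± 0.38 (SD, n = 3) in Cxcr6 KO, 9.44 ± 0.91 (n = 2) in wildtype, 9.26 ± 0.66 (n = 3) in double KO and 8.92 ± 0.55 (n = 3) in Nemo KO. Wildtype and double KO, and double KO and Nemo KO, differed by less than their SDs, and Cxcr6 KO and wildtype overlapped.

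Nfkbia was lower in double KO than in Cxcr6 KO by 1.04 ± 0.44 on the log2 scale, a 2.06-fold difference, without passing (log2 fold change -1.04, 95% interval -2.03 to -0.05, unadjusted p = 0.0417, adjusted p = 0.155 by limma). The groups did not overlap, which also held, in the same direction, for 24.4% of tested genes. In the line with Cxcr6 the log2 fold change was -0.51 ± 0.49 (adjusted p = 0.565), and the groups overlapped. The average Nemo effect was -0.78 ± 0.33 (95% interval -1.52 to -0.03, adjusted p = 0.129), and it was -0.45 without wildtype replicate 2 and -1.10 without wildtype replicate 1. Without double KO replicate 3, which read 8.49, the difference between double KO and Cxcr6 KO was -0.66. Without wildtype replicate 2 the effect in the line with Cxcr6 was 0.13, against -1.16 without wildtype replicate 1, so its sign depended on a single wildtype array.

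Tnfaip3 and Nfkbiz complete the feedback group. Nfkbiz, an atypical nuclear IkB that steers NF-kB towards secondary response genes, read 6.49 and 7.30 in wildtype, 7.06, 6.63 and 6.77 in Nemo KO, 6.51, 6.77 and 6.76 in Cxcr6 KO, and 6.77, 6.77 and 7.25 in double KO. All groups overlapped. The wildtype arrays held both the lowest and the highest value. The average Nemo effect was 0.09 ± 0.17 (95% interval -0.28 to 0.46).

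Tnfaip3 removes activating ubiquitin chains from signalling proteins upstream of IKK. It read 6.04 and 6.63 in wildtype, 6.04, 6.03 and 6.04 in Nemo KO, 5.98, 5.95 and 6.04 in Cxcr6 KO, and 6.04, 6.16 and 6.04 in double KO. A single array stood out, wildtype replicate 2, and the other 10 lay between 5.95 and 6.16. Tnfaip3 was lower in Cxcr6 KO than in wildtype, with a log2 fold change of -0.34 ± 0.15 (95% interval -0.68 to -0.01, adjusted p = 0.429 by limma). Without wildtype replicate 1, which leaves the outlying array as the only wildtype, it passed in that comparison (-0.64, adjusted p = 0.0164), in Nemo KO against wildtype (-0.59, adjusted p = 0.0337), in the interaction (0.68, adjusted p = 0.034) and in the average Nemo effect (-0.25, adjusted p = 0.0432). The lone wildtype array is then assumed to vary like the other groups. Without wildtype replicate 2 the same log2 values were -0.05, -0.0029, 0.09 and 0.04, so the average turned sign, and Tnfaip3 passed in none of them.

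**Figure D2:**
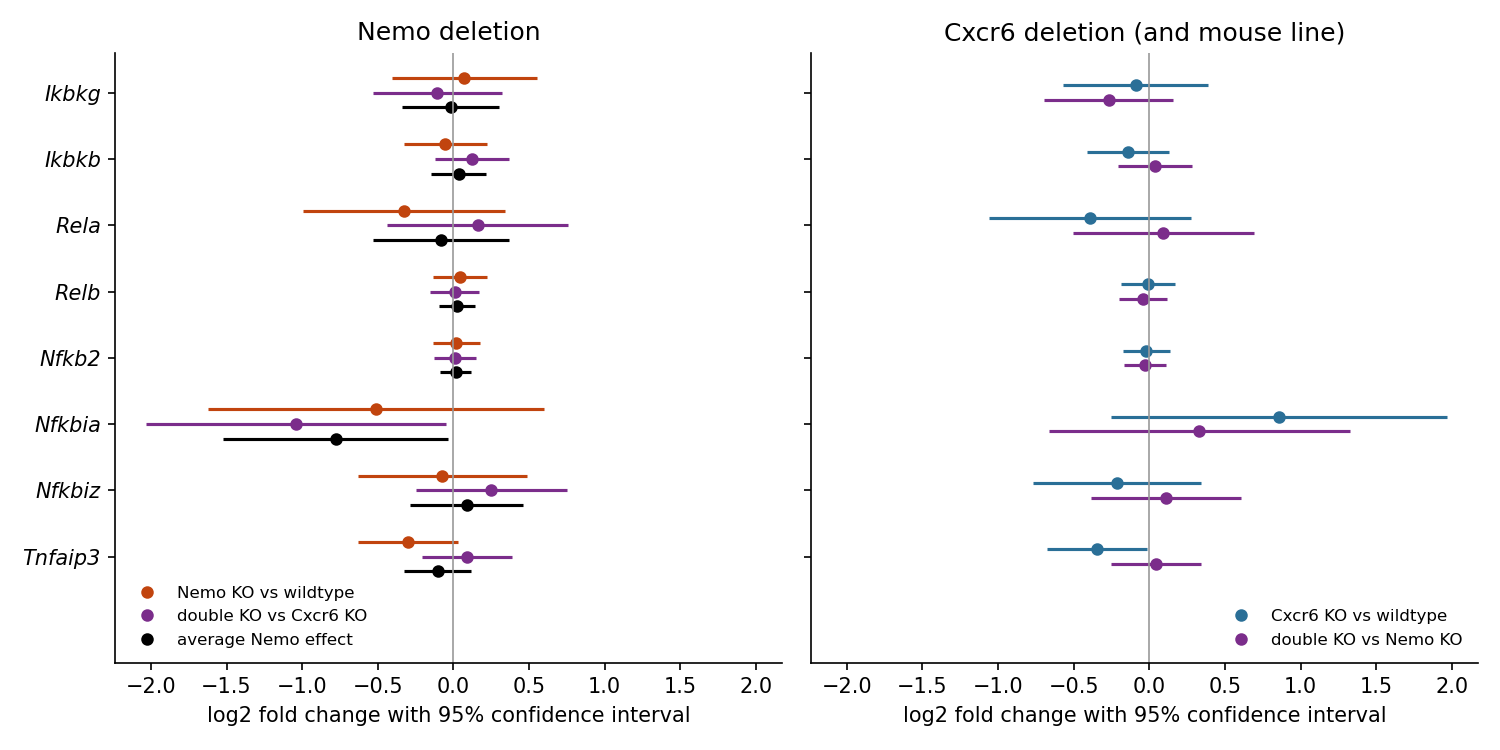
Log2 fold changes of the 8 genes (horizontal axis, points) with 95% confidence intervals from limma (lines), for Nemo deletion on the left and for Cxcr6 deletion, with mouse line, on the right. Of the Nemo effects only those of Nfkbia for double KO against Cxcr6 KO (-2.03 to -0.05) and on average (-1.52 to -0.03) have unadjusted intervals that exclude 0, and neither passed after adjustment.

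The intervals set what change in signal could have been missed. For Ikbkb, Relb and Nfkb2 the interval end farthest from 0 in the 4 pairwise comparisons was -0.42. The intervals of Nfkbia reached -2.03 and 1.97. Relb and Nfkb2 lay just above the filter on dim rows, and each had an identical value on 6 arrays. Whether such rows can show a change in RNA was not tested, so their intervals limit the signal only. Across the 8 genes the median log2 fold change was -0.06 for Nemo KO against wildtype, 0.05 for double KO against Cxcr6 KO, 0.04 for double KO against Nemo KO and -0.12 for Cxcr6 KO against wildtype. Over all tested genes these medians were -0.04, -0.06, 0.04 and 0.01.

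The genes most like Nfkbia were on none of the lists used here. Likeness was the root mean square difference of log2 values centred on each gene's mean, over the 11 arrays. The closest were Slc25a32, a mitochondrial carrier (0.27), Klf13, a Kruppel-like transcription factor (0.31), and Aldh1l1, an enzyme of folate metabolism (0.33), against a spread of Nfkbia about its own mean of 0.72. Like Nfkbia, Klf13 had its highest mean in Cxcr6 KO (9.14), followed by wildtype (8.09), double KO (7.84) and Nemo KO (7.73). Slc25a32 had the same order (10.72, 10.06, 9.74 and 9.56). Aldh1l1 did not, since its mean in double KO (15.23) exceeded that in wildtype (15.18), below Cxcr6 KO (15.69) and above Nemo KO (14.52). Double KO replicate 3 was low for all 4 genes. Since the 3 genes were picked for likeness over these same arrays, the pattern they share with Nfkbia is no separate result. The genes most like Ikbkg were Enpp3, Tnip2 and Dcaf15 (0.12, 0.13 and 0.14, against a spread of 0.23), and Tnip2 encodes a protein that binds Tnfaip3 and Nemo. Those most like Rela were Agpat2, Foxn2 and Egln3 (0.12, 0.15 and 0.16, against 0.32), and those most like Tnfaip3 were Tmem53, Vasn and Ggnbp2 (0.05, 0.06 and 0.06, against 0.18).

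**Figure D3:**
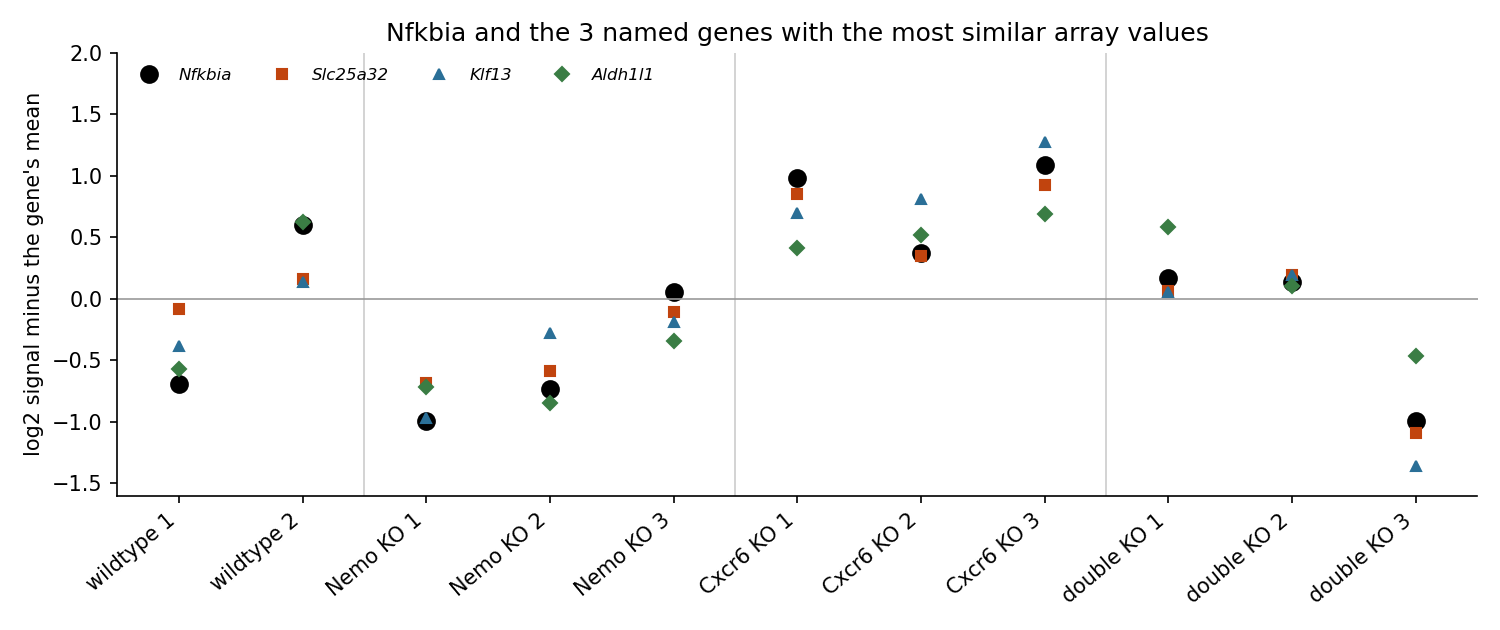
Log2 signal minus the gene's mean over 11 arrays (vertical axis) for Nfkbia and the 3 genes most like it, by array (horizontal axis), with grey lines between genotypes. All 4 genes are above their mean on the 3 Cxcr6 KO arrays and below it on double KO replicate 3. The 3 genes were picked for likeness over these arrays, so the shared pattern is no separate result.

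Many markers of other liver cells rose with Nemo deletion on average over both lines, and these cells also express NF-kB genes. In the average Nemo effect 7 of 14 tested markers of Kupffer cells and macrophages rose, as did 11 of 12 endothelial, 9 of 10 stellate cell and fibroblast and 4 of 6 cholangiocyte markers, and none of these fell. Of all genes, 4.84% rose and 15.4% fell. The array means of the macrophage list ran from 6.49 to 7.50 for wildtype, 7.18 to 8.64 for Nemo KO, 6.84 to 7.18 for Cxcr6 KO and 7.97 to 8.87 for double KO. Those of the endothelial list ran from 6.93 to 7.03, 7.30 to 7.76, 6.40 to 7.04 and 7.98 to 8.88 in the same order, and those of the stellate cell list from 5.95 to 6.26, 6.53 to 6.65, 5.79 to 5.96 and 6.79 to 7.69. For cholangiocyte markers they ran from 5.77 to 5.92, 6.03 to 6.13, 5.74 to 5.89 and 6.36 to 7.13, again in that order. None of 7 proliferation genes was called, 1 having an unadjusted p under 0.05 by limma. The array means of that list were 5.49 and 7.58 for wildtype, 6.46 to 6.84 for Nemo KO, 5.52 to 5.73 for Cxcr6 KO and 6.50 to 8.41 for double KO. Of 10 hepatocyte markers 1 fell. None of the 3 T cell, 3 NK and NKT cell and 2 neutrophil markers tested was called on average. Their median log2 fold changes were -0.01, -0.42 and 0.07. Within the lines the calls differed. None of the macrophage, endothelial, stellate cell or cholangiocyte markers was called in Nemo KO against wildtype (0.158% of all genes). In double KO against Cxcr6 KO (7.41%) 5, 10, 8 and 4 rose, in that order. Their median log2 fold changes were 0.68, 0.45, 0.41 and 0.27 in the former comparison, and 1.54, 1.61, 1.63 and 1.20 in the latter. The interaction called none of the markers of these 4 lists, and 0% of all genes. The part of these cells in the values of Nfkbia and of the pathway and target genes that follow was not tested. In whole-sample RNA, more cells of a type and more RNA per cell cannot be told apart.

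Other genes of the pathway were called at about the rate of all genes. Of 44 listed adaptors, kinases and regulators, 38 were tested. In the average Nemo effect 1 rose and 5 fell, 15.8% of them, against 20.3% of all genes (4.84% higher and 15.4% lower). The median was -0.04, equal to that of all genes. With quantile normalization the calls over all genes were 1250 higher and 1722 lower, against 887 and 2828 with the deposited values. The pathway list then had 1 that rose and 3 that fell, with a median of 0.01. In the 4 pairwise comparisons 1 of these genes was called, Tax1bp1, which fell in double KO against Cxcr6 KO by 0.45 ± 0.09 (adjusted p = 0.0237 by limma), a direction called for 3.96% of all genes. It passed there in 12 of 20 alternatives.

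Nfkbib, another IkB protein, read 9.77 and 9.70 in wildtype, no more than 9.34 on the 3 Nemo KO arrays, 9.45, 9.55 and 9.69 in Cxcr6 KO, and 9.42, 9.13 and 9.12 in double KO. Neither Nemo-deleted group overlapped its control, which held, either way, for 36% and 37.7% of all genes in the respective comparisons. The separate effects did not pass (limma adjusted p = 0.0869 and 0.114). The average effect was -0.42 ± 0.09 (adjusted p = 0.0176 by limma). Cyld, a deubiquitinase that restrains IKK activation, fell by 0.36 ± 0.08 (adjusted p = 0.019), but in double KO replicate 1 and Cxcr6 KO replicate 1 it had the same value, 8.18. Tax1bp1, an adaptor of Tnfaip3, fell by 0.30 ± 0.07 on average (adjusted p = 0.0171). Under quantile normalization Tax1bp1 was -0.08 and Nfkbib -0.27, and neither passed. Nfkbib, Cyld and Tax1bp1 also lost the call without wildtype replicate 1.

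Myd88, the adaptor of toll-like and interleukin receptors, was 8.47 and 8.29 in wildtype, 7.89, 7.28 and 7.79 in Nemo KO, 7.98, 8.25 and 8.11 in Cxcr6 KO, and 7.61, 7.61 and 8.01 in double KO. The double KO and Cxcr6 KO arrays overlapped, and the average effect was -0.55 ± 0.13 (adjusted p = 0.0219). It passed in 15 of 19 alternatives and was lost without wildtype replicate 1, Cxcr6 KO replicate 2 or 3, or double KO replicate 2. Cdc37, the chaperone that delivers kinases including IKK to Hsp90, fell by 0.38 ± 0.07 (adjusted p = 0.0109) and passed in all 19 alternative analyses. Map3k14, the kinase that starts the non-canonical pathway, rose by 0.23 ± 0.07 (adjusted p = 0.0498), and it passed in 4 of 18 alternatives. In the average Nemo effect the pathway list's median was -0.03 without wildtype replicate 1 and -0.09 without wildtype replicate 2. Over all genes these medians were -0.04 and -0.05.

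Target genes of NF-kB moved in both directions. Of 48 listed targets 29 were tested, and in the average Nemo effect 3 rose and 2 fell, 17.2% against 20.3% of all genes, with a median of 0.05. Lipocalin-2 (Lcn2), a secreted iron-sequestering protein of the acute-phase response, read 6.40 and 7.93 in wildtype, 9.11, 8.42 and 9.30 in Nemo KO, 6.42, 6.25 and 6.49 in Cxcr6 KO, and 7.73, 7.22 and 8.14 in double KO. Each Nemo-deleted group lay wholly above its control. Groups did not overlap, either way, for 36% and 37.7% of all genes in these comparisons. Neither effect on Lcn2 passed alone (limma adjusted p = 0.0753 and 0.0693). The average rise was 1.54 ± 0.29, or 2.92-fold (adjusted p = 0.0124). Tifa, an adaptor that activates Traf6, rose by 0.43 ± 0.07 (adjusted p = 0.00931). The adhesion molecule Icam1 rose by 0.54 ± 0.15 (adjusted p = 0.0379), but passed in only 10 of 19 alternatives.

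The mitochondrial superoxide dismutase Sod2, a protective NF-kB target, fell. It read 9.38 and 8.59 in wildtype, 8.36, 8.04 and 8.30 in Nemo KO, 9.01, 9.20 and 9.09 in Cxcr6 KO, and 8.59, 8.29 and 8.22 in double KO. Both Nemo-deleted groups lay wholly below their controls, with log2 fold changes of -0.76 ± 0.22 and -0.73 ± 0.19. Neither passed alone (limma adjusted p = 0.0883 and 0.0525). Of all genes, 36% and 37.7% did not overlap, either way, in these comparisons. The average effect was -0.74 ± 0.14 (limma adjusted p = 0.0132). The serum amyloid gene Saa3 fell by 0.60 ± 0.13 (adjusted p = 0.0169), and was also called in double KO against Cxcr6 KO (-0.82 ± 0.17, adjusted p = 0.0289). The average call passed in 17 of 19 alternatives and was lost with array weights and without wildtype replicate 1. The call in double KO against Cxcr6 KO passed in 14 of 20 alternatives. It was lost on leaving out any of the 6 arrays compared. The serum amyloid genes are close paralogs, and sharing of signal between them was not tested. Lcn2, Tifa and Sod2 passed in all 19 alternatives. In the average Nemo effect the median of the targets was 0.01 without wildtype replicate 1 and 0.15 without wildtype replicate 2. Over all genes these medians were -0.04 and -0.05.

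**Figure D4:**
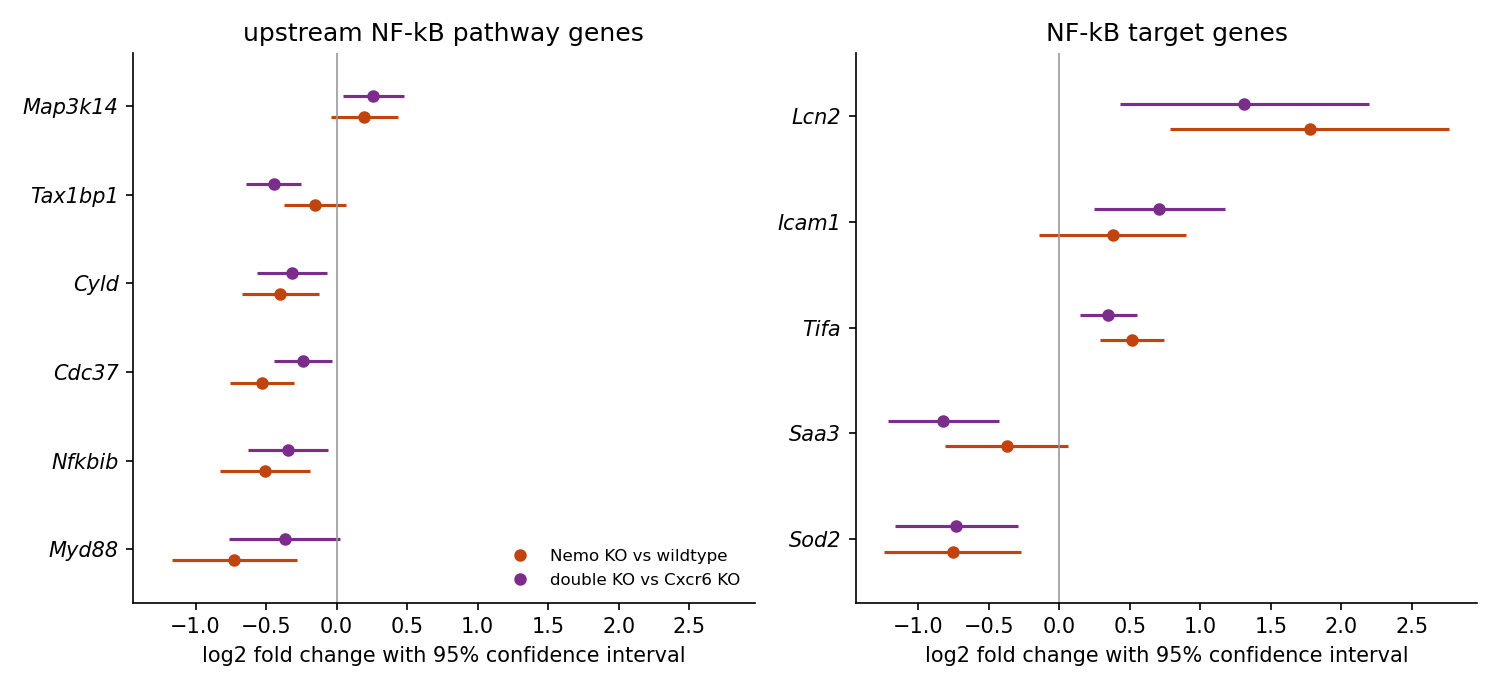
Log2 fold changes (points) with 95% confidence intervals (lines) for Nemo deletion in the line with Cxcr6 (Nemo KO against wildtype) and in the line without it (double KO against Cxcr6 KO), for the 6 pathway genes and 5 target genes called in the average Nemo effect. The fold changes run from -0.82 for Saa3 to 1.78 for Lcn2, and since the 11 genes were chosen on the average of both effects, equal signs in both lines are no separate result.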

How the data were processed

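RNA from hepatocytes was measured on 11 whole-transcript arrays, from 300 ng of total RNA each per the labels' protocols. The authors deposited log2 signals made with Affymetrix Expression Console, RMA and Transcriptome Analysis Console, per the submitters' processing notes, with no versions; RMA corrects background, normalizes quantiles and summarises probes by median polish. No genome build is named: it was not given in the sources used here. Arrays have no read depth, and their number limits the precision. Of 65956 rows, 30604 have 1 gene symbol, 2146 several and 33206 none here; symbols were updated through gene identifiers (22818 rows matched). Genes with a highest group mean of at least the median row mean, 5.27, were tested (18337). One linear model over the 4 groups was fitted in R 4.3.3 with limma 3.58.1 (lmFit and eBayes, 7 residual degrees of freedom), two-sided, with Benjamini-Hochberg adjustment over all genes tested and a threshold of 5%. Log2 fold changes carry standard errors and group means SDs.

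The family, the pathway, target and marker lists and the tests were chosen with earlier results of these data known. Named genes were the listed family, up to 6 genes per pathway or target list and comparison with the smallest p past 5%, the 3 genes most like each of the 4 members with the widest range of group means (predicted genes, short RNAs and olfactory receptors aside), and Cxcr6 and Alb as checks; Cd3e, Ncr1, S100a8 and Mki67 stand for marker lists. Alternatives were quantile normalization, centred array medians, no or a stricter filter on dim rows, a trended and robust fit, array weights, the mean of a gene's rows, only the groups compared, the replicate number as a block, and each array left out. The pathway and target gene counts were put through the alternatives after the data had been seen.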

Additional observations from a re-analysis of the deposited data

Results flagged for a closer look

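Birc2, a ubiquitin ligase that acts between the tumour necrosis factor receptor and IKK, had values on opposite sides of the controls in the 2 lines with Nemo deletion. It was 9.22 and 8.94 in wildtype and 8.61, 8.67 and 8.67 in Nemo KO, so every Nemo KO array was lower. It was 8.29, 8.49 and 8.59 in Cxcr6 KO and 8.86, 8.80 and 8.67 in double KO, so every double KO array was higher. Groups did not overlap, either way, for 36% of all genes in the former comparison and 37.7% in the latter. Neither effect passed alone (-0.43 ± 0.12 and 0.32 ± 0.11, limma adjusted p = 0.087 and 0.0902). The difference between the effects was 0.75 ± 0.16 on the log2 scale and did not pass (limma adjusted p = 0.251). Birc2 passed the F test over the 4 groups (limma adjusted p = 0.0396), as did 12.7% of all genes.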

How the results depend on the processing

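The 8 family members were recounted under 20 alternatives for each pairwise comparison and 19 for the others. The counts stayed at 0 for double KO against Cxcr6 KO and for double KO against Nemo KO. With array weights 1 member, Nfkbia, passed the F test, as did 6813 genes in all against 2335. Leaving out 1 array at a time gave 0 to 1 members in Nemo KO against wildtype, Cxcr6 KO against wildtype, the interaction, the average Nemo effect and the F test, the 1 being Tnfaip3 without wildtype replicate 1. In the average Nemo effect, leaving out an array of another genotype than wildtype gave 4 to 6 pathway genes (6 with all arrays). Targets numbered 4 to 6 (5 with all arrays), and 10.4% to 20.9% of all genes were called. The pathway count moved further without either wildtype array, as did the count over all genes. With the replicate number as a block, 0 members passed in each comparison, and the log2 fold change of Nfkbia was -1.04 in double KO against Cxcr6 KO. In the average Nemo effect 5 pathway genes and 6 targets then passed, where 19.5% of all genes did. Whether the numbers pair the samples was not settled. Deviations of same-numbered arrays had correlations of -0.27 to 0.28 (median 0.06), with 6 of 15 pairs over 0.1. Those of different-numbered arrays ran from -0.42 to 0.29 (median 0.01), with 7 of 30 pairs over 0.1. Deviations within a group depend on each other, so these correlations cannot exclude pairing.

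Over all genes the called count for Nemo KO against wildtype ranged from 0 (array weights among others) to 1041 (array medians centred) against 29, and it was 2380 without wildtype replicate 2. It was 11 (only the groups compared) to 971 (array weights) against 109 for double KO against Nemo KO, 929 to 4692 against 1358 for double KO against Cxcr6 KO, with 116 without Cxcr6 KO replicate 3, 0 to 51 against 47 for Cxcr6 KO against wildtype, with 493 without wildtype replicate 1, and 2938 to 3753 against 3715 for the average Nemo effect, with 1369 and 5058 without wildtype replicate 1 or 2. The F test had 1445 to 6813 against 2335, with 184 without Cxcr6 KO replicate 3, and the interaction had 232 without wildtype replicate 1. The calls for Nemo KO against wildtype split into 9 higher and 20 lower, 10 and 5 with quantile normalization and 82 and 959 with medians centred, and those for double KO against Nemo KO into 67 and 42, or 112 and 30 with medians centred. Centring moved the median interaction over all genes from 0.03 to 0.14. The cause was not tested. No background correction could be varied, since scanner files were not used here.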
